A study of Mus musculus with 16 samples.

Results

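The 10 genes described here encode Notch receptors (Notch1, Notch2 and Notch3), Notch ligands (Dll1, Dll3 and Jag1) and transcriptional repressors of the Hes and Hey families (Hes1, Hes7, Hey1 and Hey2). They were taken as a list of names, drawn up with earlier results of these data known, and are 10 of the 18716 genes that could be named among the 32000 probe sets tested. Each of the 10 had 1 probe set with a single gene symbol, and all 10 probe sets were among those tested. Values are log2 expression after robust multichip averaging (RMA), so that a difference of 1 is a doubling of signal.

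Notch receptors are single-pass membrane proteins that are cleaved after binding a ligand on a neighbouring cell. The freed intracellular domain enters the nucleus, binds the DNA-binding protein Rbpj together with a Mastermind-like coactivator and switches on genes of the Hes and Hey families. In the gastrulating mouse embryo and the tissues that follow from it, the pathway is best known for the segmentation of presomitic mesoderm, where Dll1, Dll3 and Hes7 are part of the segmentation machinery, and for blood vessel and heart formation, where Hey1 and Hey2 act.

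The study set endoderm formation against mesoderm formation in mouse embryonic stem cells (mESCs) that carry GFP at 1 allele of T and tagRFP at 1 allele of Foxa2. The labels name the line E14.1 on a 129/Ola background, while the study's methods list the reporter line as G4 mESCs, and the sources do not settle which holds. The measurements are 16 Affymetrix Mouse Gene ST 1.0 arrays, 2 biological replicates for each of 8 groups. All groups carry both reporters, and all 7 differentiated groups were grown on feeders that express Wnt3a and were then sorted by flow cytometry.

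Foxa2+ T- cells came from cultures with 12 ng/ml activin A and were sorted by CD24 into high cells (F+CD24high) and low cells (F+CD24low), each on days 2 and 4. For T+ Foxa2- cells, Bmp4 at 7.5 ng/ml and activin A at 3 ng/ml were added to that medium, and the sources do not make clear whether the 12 ng/ml activin A was then present too. They were sorted without CD24 on day 4 (T+CD24neg) or with low CD24 on days 2 and 4 (T+CD24low). The labels give the stage of all Foxa2+ groups as definitive endoderm and that of all T+ groups as mesoderm, and the study treats the CD24low groups as progenitors. Undifferentiated mESCs (ES, day 0) were kept with leukemia inhibitory factor on mouse embryonic fibroblasts, and their arrays carry no sorting gate. Lineage cannot be told apart from medium, nor sorting from differentiation, since each changed together with the other.

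The 2 arrays of a group correlated at 0.989 to 0.995 over all 35556 probe sets deposited, and array medians lay between 7.42 and 7.49. Of 12 definitive endoderm markers, the mean level was 11.82 on both F+CD24high D4 arrays, against 8.82 and 8.84 on the T+CD24neg D4 arrays. For 12 mesoderm markers it was 7.58 on both F+CD24high D4 arrays, against 10.49 and 10.52 on the T+CD24neg D4 arrays, so that both labels stood beside their markers. The mean of 10 markers of pluripotent cells was 8.05 to 9.60 on the sorted arrays, against 11.39 and 11.91 on the ES arrays. The 8 visceral endoderm markers averaged 8.32 and 8.36 on the F+CD24high D4 arrays, with Apoa1 at 12.03, and 7.38 or less on every other array. The 12 endothelial markers averaged 7.63 to 7.85 on the 4 day 4 arrays of T+ cells, with Etv2 the highest, and 7.30 or less on every other array.

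Fibroblast markers were higher in ES cells, which were grown on fibroblasts. The mean of the 18 measured genes of a list of 20 was 7.34 to 8.04 on the 14 sorted arrays, against 9.82 and 9.46 on ES replicates 1 and 2. Between 9 and 14 of the 18 were lower in each sorted group than in ES cells, and 1, Pdgfrb, was higher in T+CD24neg D4 cells. ES replicate 1 had the higher level of Notch2, Notch3, Dll3, Hes1, Hey1 and Hey2, and ES replicate 2 that of Notch1, Dll1, Jag1 and Hes7. The part of fibroblast RNA in the comparisons with ES was not tested. Among the sorted arrays, F+CD24high D2 replicate 2 stood apart from its replicate 1. Its fibroblast mean was 7.91, against 7.39 on replicate 1, and its mesoderm mean 7.96, against 7.53. Its level of Wnt3a, the ligand that the feeders express, was 9.19, against 7.12 to 7.65 on the other 15 arrays. Without it, 4 of the 5 members called in F+CD24high D2 cells against ES were called, with Dll1 lost, all 3 against F+CD24low D2 cells and the 1 in the interaction of gate and day held, and the 1 between days in F+CD24high cells was lost. In sorted or cultured populations, fewer cells that express a gene and less RNA per cell cannot be told apart.

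A gene is called higher or lower below when its log2 fold change exceeded 1 in size and its limma p-value was under 0.05 after Benjamini–Hochberg adjustment for the 32000 tests of that comparison. Adjusted p-values measure the spread between the 2 arrays of a group, pooled over all 8 groups. The 7 comparisons with ES share the same 2 ES arrays.

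Against ES cells, 8 of the 10 genes were higher in at least 1 sorted group and none was called lower in any with limma, where 5 of the 70 values were below 0 at an unadjusted p under 0.05. The share of all probe sets called in at least 1 of the 7 groups was not computed, so these counts have no base rate. Shares for each group follow below. Hes1 was higher in 5 of the 7 sorted groups and Hey1 in 5, Notch3 in 3, Dll1, Dll3, Jag1 and Hey2 in 2 each, and Notch1 in 1. Notch2 and Hes7 did not pass in any of the 19 comparisons of the study with limma, though each had an unadjusted p under 0.05 in 7 of them. The 2 F+CD24high groups and T+CD24neg D4 had 16 of these 22 calls. Of the ligands, Dll1 and Jag1 passed against ES in F+CD24high cells, and Dll3 in T+CD24neg D4 and T+CD24low D4 cells. Set directly against T+CD24neg D4 cells, F+CD24high D4 cells passed for Jag1 and Dll3 but not for Dll1, at 0.50.

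The number of members called higher than in ES was 5 in F+CD24high D4, where 3.57% of all probe sets tested were higher and 5.19% lower. It was 5 in F+CD24high D2, with 2.25% of probe sets higher and 4.4% lower. In F+CD24low D4 cells 2 members were higher, beside 1.8% of probe sets higher and 2.71% lower, and in F+CD24low D2 cells 1 was, beside 1.18% higher and 2.47% lower. In T+CD24neg D4 cells 6 members were higher, beside 2.23% of probe sets higher and 3.43% lower. In T+CD24low D4 cells 3 were higher, beside 2.26% higher and 3.2% lower. In T+CD24low D2 cells no member was called by limma, while 4.1% of probe sets were called in either direction. There 6 members had an unadjusted p under 0.05 and 4 an adjusted p under 0.05, at a smaller fold. Of the 22 calls against ES, 6 were kept when each change was tested against a log2 fold change of 1 instead of 0 (limma's treat): Hes1 in both F+CD24high groups and in T+CD24neg D4, Jag1 in F+CD24high D2, and Dll3 and Hey2 in T+CD24neg D4.

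**Figure D1:**
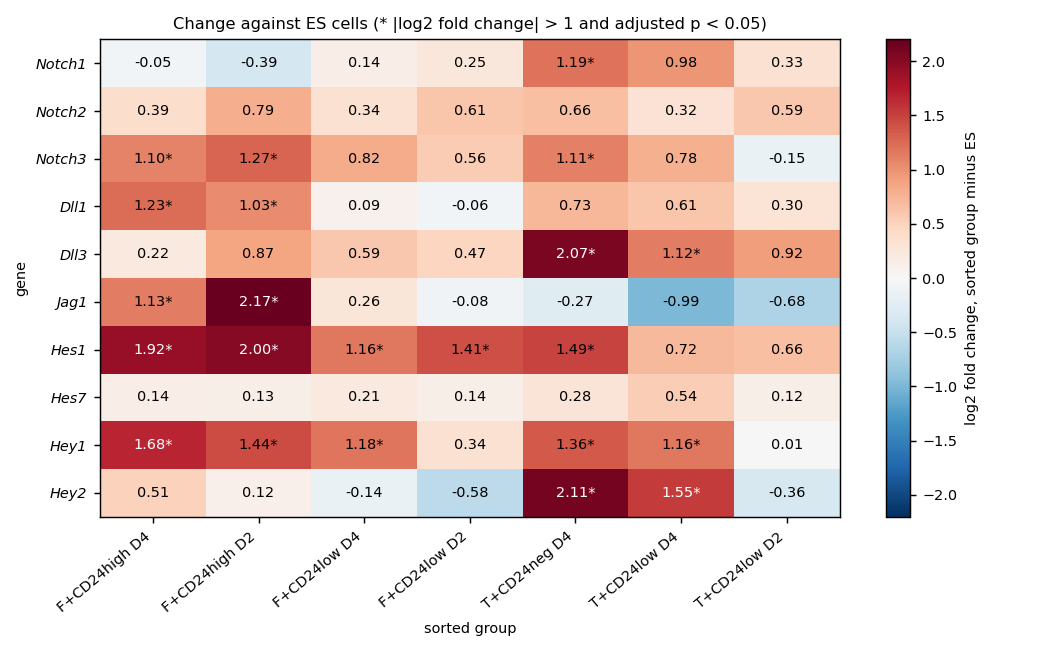
Log2 fold change of the 10 genes (rows) in each of the 7 sorted groups (columns) minus ES, with 2 arrays a group; colour and number give the log2 fold change and an asterisk marks a change past both thresholds. Hes1 is marked in 5 columns and Hey1 in 5, Jag1 and Dll1 in the F+CD24high columns alone, and Dll3 and Hey2 in the day 4 T+ columns alone.

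Of the receptors, Notch1, on mouse chromosome 2, had levels of 10.71 and 10.66 in T+CD24neg D4 cells, 10.67 and 10.27 in T+CD24low D4 and 9.85 and 9.81 in T+CD24low D2. It had 9.44 and 9.44 in F+CD24high D4, 9.12 and 9.09 in F+CD24high D2, 9.64 and 9.63 in F+CD24low D4, 9.72 and 9.77 in F+CD24low D2, and 9.49 and 9.50 in ES. All 4 arrays of day 4 T+ cells therefore lay above all the other 12, and F+CD24high D2 cells were the lowest group. Against ES, Notch1 was 2.28-fold higher in T+CD24neg D4 cells (log2 1.19 ± 0.11 SE, adjusted p = 1.42e-05). The T+CD24low D4 difference of 0.98 fell just short of the fold threshold (adjusted p = 7.3e-05) and was 1.18, past it, without the lower array, T+CD24low D4 replicate 2.

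Notch2, on chromosome 3, varied least of the receptors, and its group means spanned 0.79. Its levels ran between 9.66 and 10.39 on the 14 sorted arrays, against 9.75 and 9.31 on the ES arrays. In no pair of neighbouring groups in the order of its means did the 95% interval of the difference leave out 0. The mean was highest in F+CD24high D2 cells, at 10.32 ± 0.10 (SD, n = 2), and lowest in ES, at 9.53 ± 0.31, a difference of 0.79 with a 95% interval of 0.45 to 1.14 (adjusted p = 0.00296). Without ES replicate 1 this difference was 1.01, past the fold threshold.

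Notch3, on chromosome 17, had its highest means in the F+CD24high groups and T+CD24neg D4 and its lowest in ES and T+CD24low D2. It had 10.42 and 10.26 in F+CD24high D4 cells, 10.78 and 10.25 in F+CD24high D2 and 10.40 and 10.31 in T+CD24neg D4. It had 10.12 and 9.99 in F+CD24low D4, 9.95 and 9.65 in F+CD24low D2, 10.18 and 9.86 in T+CD24low D4, 9.05 and 9.12 in T+CD24low D2, and 9.56 and 8.93 in ES. The 2 ES arrays spanned both T+CD24low D2 arrays, while every other sorted array lay above both. The log2 fold changes against ES were 1.10 in F+CD24high D4 (adjusted p = 0.00206), 1.27 in F+CD24high D2 (adjusted p = 0.000992) and 1.11 in T+CD24neg D4 (adjusted p = 0.00283). Without ES replicate 2, the lower array, they were 0.78, 0.96 and 0.80 and none passed, and with only the 2 groups in the fit the adjusted p of F+CD24high D2 was 0.0606. Without ES replicate 1, F+CD24low D4 and T+CD24low D4 cells passed too, at 1.13 and 1.10.

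**Figure D2:**
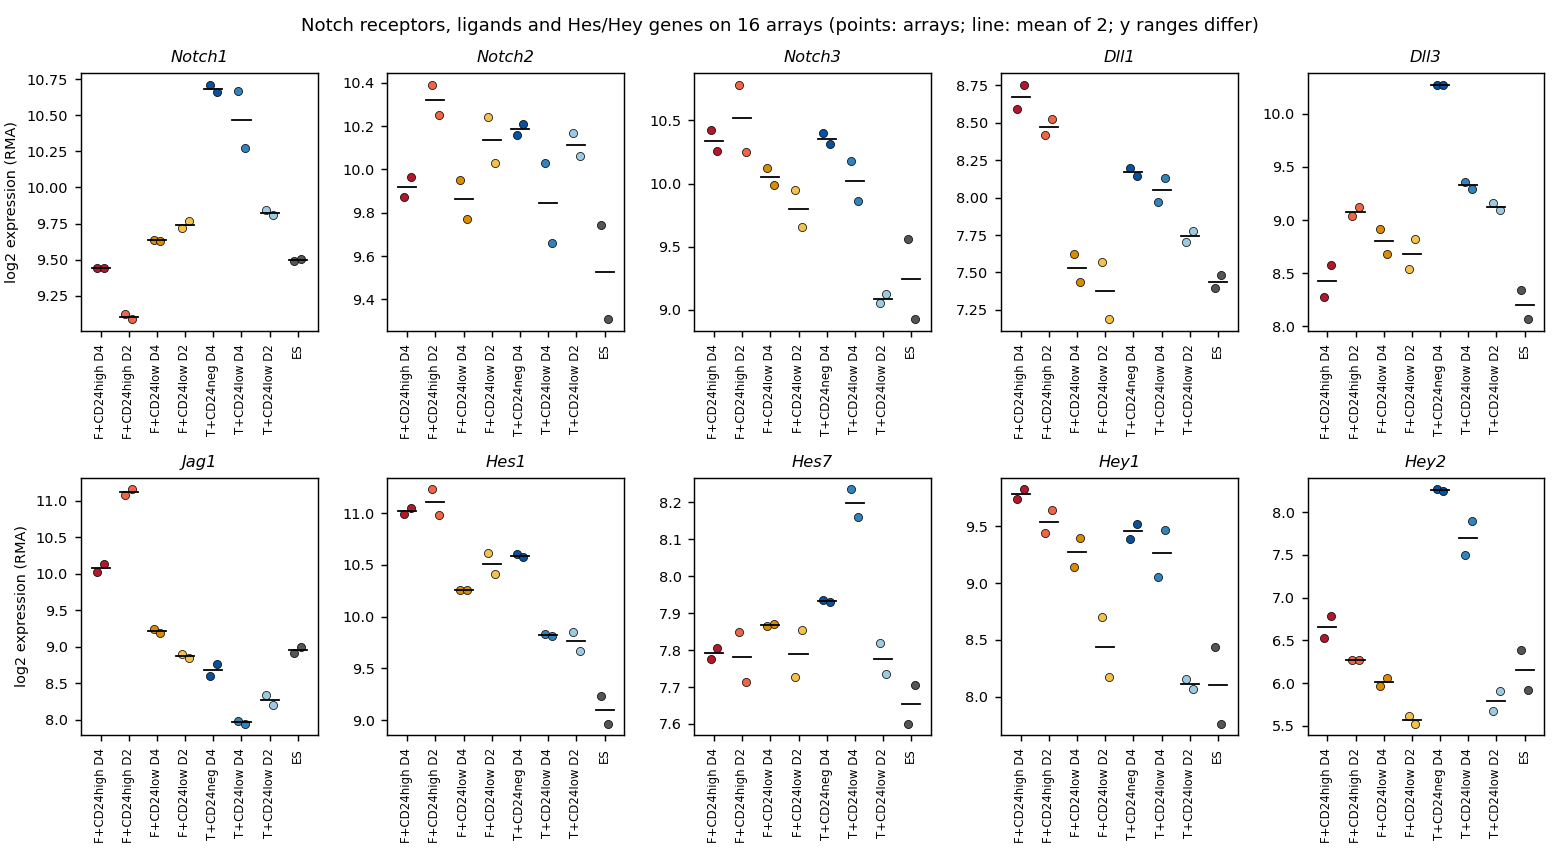
Log2 expression of each of the 10 genes (panels) on every one of the 16 arrays, by group along the horizontal axis, with points for arrays and a line for the mean of 2; the vertical ranges differ between panels. Jag1 and Hes1 are highest on the 4 F+CD24high arrays, and Notch1 and Hey2 on the 4 arrays of day 4 T+ cells.

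Among the ligands, Jag1, a ligand of the Jagged family on chromosome 2, had the widest range of the 10 genes, with group means spanning 3.16. It had 10.03 and 10.13 in F+CD24high D4 cells, 11.08 and 11.16 in F+CD24high D2, 9.24 and 9.19 in F+CD24low D4 and 8.90 and 8.85 in F+CD24low D2. It had 8.60 and 8.76 in T+CD24neg D4, 7.98 and 7.94 in T+CD24low D4, 8.33 and 8.20 in T+CD24low D2, and 8.91 and 8.99 in ES. All 8 Foxa2+ arrays lay above all 6 T+ arrays, and ES fell between the F+CD24low groups of days 4 and 2. In the order of the 8 means, 6 of the 7 neighbouring pairs differed with a 95% interval that left out 0, and the pair that did not was ES and F+CD24low D2. Jag1 was 4.49-fold higher in F+CD24high D2 cells than in ES (log2 2.17 ± 0.089 SE, adjusted p = 2.24e-08) and 2.19-fold higher in F+CD24high D4 cells (log2 1.13, adjusted p = 1.99e-06). In T+CD24low D4 cells it was at −0.99 against ES (adjusted p = 1.13e-05), short of the fold threshold, and it passed when ES replicate 1 (−1.03) or T+CD24low D4 replicate 1 (−1.01) was left out.

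Dll1, a delta-like ligand that activates Notch on neighbouring cells, lies on chromosome 17. It had 8.59 and 8.75 in F+CD24high D4 cells, 8.42 and 8.53 in F+CD24high D2, 7.63 and 7.43 in F+CD24low D4 and 7.57 and 7.19 in F+CD24low D2. It had 8.20 and 8.15 in T+CD24neg D4, 7.97 and 8.13 in T+CD24low D4, 7.71 and 7.78 in T+CD24low D2, and 7.40 and 7.48 in ES. The F+CD24high arrays were the highest 4 of the 16, the T+ arrays came next, and the F+CD24low arrays overlapped ES. Dll1 was 2.35-fold higher in F+CD24high D4 cells than in ES (log2 1.23 ± 0.13 SE, adjusted p = 1.75e-05). In F+CD24high D2 cells the difference was 1.03 (adjusted p = 0.000109), and it was 0.99 without ES replicate 1 and 0.98 without F+CD24high D2 replicate 2, under the fold threshold. In T+CD24neg D4 cells it was 0.73 (adjusted p = 0.0015).

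Dll3, on chromosome 7, is a divergent delta-like protein that in mouse counters Notch within the cell that makes it and is needed for regular somites. It had 10.27 and 10.27 in T+CD24neg D4 cells, 9.36 and 9.29 in T+CD24low D4 and 9.16 and 9.09 in T+CD24low D2. It had 8.28 and 8.58 in F+CD24high D4, 9.04 and 9.12 in F+CD24high D2, 8.92 and 8.68 in F+CD24low D4, 8.54 and 8.82 in F+CD24low D2, and 8.34 and 8.07 in ES. T+CD24neg D4 stood apart, 0.95 above the next group with a 95% interval of 0.64 to 1.25, and no other pair of neighbours in the order differed with an interval that left out 0. Dll3 was 4.19-fold higher in T+CD24neg D4 cells than in ES (log2 2.07 ± 0.14 SE, adjusted p = 9.83e-07). It was 2.17-fold higher in T+CD24low D4 cells (log2 1.12, adjusted p = 0.000129), and this was 0.98 without ES replicate 2. Without ES replicate 1, Dll3 passed in F+CD24high D2 and T+CD24low D2 cells as well, at 1.01 and 1.06.

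Of the Hes and Hey genes, Hes1, a basic helix-loop-helix repressor and a well-known Notch target on chromosome 16, was higher on every sorted array than on both ES arrays. It had 10.99 and 11.05 in F+CD24high D4 cells, 11.23 and 10.98 in F+CD24high D2, 10.26 and 10.26 in F+CD24low D4 and 10.61 and 10.41 in F+CD24low D2. It had 10.60 and 10.58 in T+CD24neg D4, 9.83 and 9.82 in T+CD24low D4, 9.85 and 9.67 in T+CD24low D2, and 9.24 and 8.97 in ES. The order was F+CD24high, then T+CD24neg D4 with the F+CD24low groups, then T+CD24low, then ES. The log2 fold changes against ES were 1.92 ± 0.12 SE in F+CD24high D4 (adjusted p = 3.08e-07), 2.00 in F+CD24high D2 (adjusted p = 3.76e-07) and 1.49 in T+CD24neg D4 (adjusted p = 4.33e-06). They were 1.16 in F+CD24low D4 and 1.41 in F+CD24low D2, both called, and 0.72 and 0.66 in T+CD24low D4 and D2, which stayed under the fold threshold at adjusted p-values of 0.00118 and 0.00288. None of the 5 calls of Hes1 was lost when any single array was left out.

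Hey1, a basic helix-loop-helix repressor on chromosome 3, had its lowest means in ES and in the CD24low groups of day 2. It had 9.74 and 9.83 in F+CD24high D4 cells, 9.44 and 9.64 in F+CD24high D2, 9.15 and 9.40 in F+CD24low D4 and 8.70 and 8.17 in F+CD24low D2. It had 9.39 and 9.52 in T+CD24neg D4, 9.05 and 9.47 in T+CD24low D4, 8.16 and 8.07 in T+CD24low D2, and 8.43 and 7.76 in ES. The 5 groups with the higher means were all the day 4 groups and F+CD24high D2, and the next group, F+CD24low D2, lay 0.82 below the last of these, with a 95% interval of 0.33 to 1.32. Against ES the log2 fold changes were 1.68 in F+CD24high D4 (adjusted p = 0.000142), 1.44 in F+CD24high D2, 1.36 in T+CD24neg D4, 1.18 in F+CD24low D4 (adjusted p = 0.00349) and 1.16 in T+CD24low D4 (adjusted p = 0.00326). The last 2 rested on single arrays: without ES replicate 2 they were 0.84 and 0.83, and T+CD24low D4 was 0.95 without its own replicate 2. With only the 2 groups in the fit, their adjusted p-values were 0.0543 and 0.0701.

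Hey2, a relative of Hey1 on chromosome 10, was the most restricted member. It had 8.27 and 8.25 in T+CD24neg D4 cells, 7.50 and 7.90 in T+CD24low D4 and 5.68 and 5.91 in T+CD24low D2. It had 6.53 and 6.78 in F+CD24high D4, 6.27 and 6.27 in F+CD24high D2, 5.97 and 6.06 in F+CD24low D4, 5.62 and 5.53 in F+CD24low D2, and 6.39 and 5.92 in ES. The 4 arrays of day 4 T+ cells lay above all the other 12. Among the group means of all probe sets, its mean was at the 61.7th percentile in T+CD24neg D4 cells and the 28.5th in ES. In every group other than day 4 T+ cells its mean was at or below the 36.6th percentile. The deposited values carry no detection call, so whether Hey2 was above background in the groups other than day 4 T+ cells is not known, and every fold of Hey2 given here against such a group is a ratio of signals that may include background. Hey2 was 4.30-fold higher in T+CD24neg D4 cells than in ES (log2 2.11 ± 0.17 SE, adjusted p = 3.55e-06) and 2.92-fold higher in T+CD24low D4 cells (log2 1.55, adjusted p = 4.22e-05).

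Hes7, a repressor of the segmentation clock on chromosome 11, spanned 0.55 over the 8 group means and was called in no comparison. It had 8.24 and 8.16 in T+CD24low D4 cells and 7.94 and 7.93 in T+CD24neg D4, and 7.71 to 7.87 on the other 10 sorted arrays, against 7.60 and 7.71 in ES. T+CD24low D4 was the highest group, 0.27 above T+CD24neg D4 with a 95% interval of 0.08 to 0.45, and was 0.54 above ES (adjusted p = 0.000783).

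The start-site windows of Hey2 and Hes7 are shown because they were the only ones of the members' windows with the core sequence TGGGAA, the letters that Rbpj is known to bind. The RefSeq table (GRCm38.p6) held 9 windows for 8 of the 10 genes, with Hes1 and Hey1 not among them. Each window runs from 250 bases before to 50 bases after a start site listed for the gene. The start used for Hes7 lies inside its gene span, 69118906 to 69124054. Counting both strands, TGGGAA was in 2 of the 9 windows and in 0 of the 7 of receptors and ligands, and in 25.6% of all 32851 windows of that length. Both sequences are written 5′ to 3′ on the gene's strand up to base 30 after the start, with capitals for TGGGAA or its reverse complement TTCCCA.
Hey2, chr10:30842754-30843033, minus strand: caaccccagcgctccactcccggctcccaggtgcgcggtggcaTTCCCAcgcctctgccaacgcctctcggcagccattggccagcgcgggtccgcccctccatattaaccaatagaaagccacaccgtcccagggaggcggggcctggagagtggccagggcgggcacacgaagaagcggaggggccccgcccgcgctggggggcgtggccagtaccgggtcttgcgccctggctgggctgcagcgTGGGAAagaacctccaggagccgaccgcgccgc
Hes7, chr11:69120203-69120482, plus strand: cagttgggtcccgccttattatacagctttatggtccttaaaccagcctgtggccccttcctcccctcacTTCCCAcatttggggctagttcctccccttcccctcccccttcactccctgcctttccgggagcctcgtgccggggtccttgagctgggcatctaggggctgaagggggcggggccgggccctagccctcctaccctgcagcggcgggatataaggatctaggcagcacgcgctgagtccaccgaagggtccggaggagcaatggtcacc
In Hey2 the core is at bases −207 to −202 on the opposite strand and at −3 to 3 on the gene's strand, across the start, where no base is numbered 0. In Hes7 it is at −180 to −175 on the opposite strand. A match of 6 letters describes the sequence and was not tested for binding in these cells.

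The next comparison set endoderm against mesoderm at matched stages. On day 4, F+CD24high cells had more Jag1 and less Notch1, Dll3 and Hey2 than T+CD24neg cells, and F+CD24low cells had more Jag1 and less Hey2 than T+CD24low cells. On day 2 no member differed between F+CD24low and T+CD24low cells by more than 1. The gate on CD24 differs as well in the first of these pairs.

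In F+CD24high D4 compared with T+CD24neg D4 cells, 1 member was higher and 3 were lower, where 2.92% of probe sets were higher and 2.96% lower. Jag1 had 10.03 and 10.13 in F+CD24high D4 cells, against 8.60 and 8.76 in T+CD24neg D4 cells, a 2.64-fold difference (log2 1.40, 95% interval 1.21 to 1.60, adjusted p = 4.86e-07). Dll3 was 3.59-fold lower in F+CD24high D4 cells (log2 −1.84, −2.15 to −1.54, adjusted p = 1.88e-06), Hey2 3.03-fold lower (log2 −1.60, −1.96 to −1.24, adjusted p = 2.46e-05) and Notch1 2.36-fold lower (log2 −1.24, −1.49 to −0.997, adjusted p = 7.95e-06). The Hey2 level in F+CD24high D4 cells may be background. The arrays of the 2 groups did not overlap for any of the 4 genes. Nor did they for the members not called, Notch3 excepted, so the lack of overlap adds little. The share of all probe sets without overlap was not computed. With any single array left out, the difference stayed at or above 1.32 for Jag1. It stayed at or below −1.69 for Dll3, −1.475 for Hey2 and −1.215 for Notch1. Hes1 (0.43, adjusted p = 0.0232) and Dll1 (0.50, adjusted p = 0.0145) were above 0 but under the fold threshold, and Notch3 was at −0.02 with an interval of −0.48 to 0.45.

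In F+CD24low D4 compared with T+CD24low D4 cells, 1 member was higher and 1 lower, beside 1.53% of probe sets higher and 1.55% lower. Jag1 was 2.38-fold higher in F+CD24low D4 cells (log2 1.25, 1.06 to 1.45, adjusted p = 3.35e-06) and Hey2, whose level in F+CD24low D4 cells may be background, 3.22-fold lower (log2 −1.69, −2.05 to −1.32, adjusted p = 3.73e-05). Notch1 was at −0.84 (adjusted p = 0.000426), and at −1.04, past the threshold, without T+CD24low D4 replicate 2. Dll1 (−0.52) and Dll3 (−0.53) were below 0, with adjusted p-values of 0.0236 and 0.034. Dll1 thus stood on opposite sides of 0 in the 2 day 4 comparisons.

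In F+CD24low D2 compared with T+CD24low D2 cells, no member passed both thresholds with limma, beside 0.903% of probe sets called in either direction, and 5 had an unadjusted p under 0.05. Hes1 (0.75, 95% interval 0.49 to 1.01, adjusted p = 0.00596) and Jag1 (0.61, 0.41 to 0.80, adjusted p = 0.00375) had an adjusted p under 0.05 at a smaller fold. Hey2 was at −0.22, with an interval of −0.58 to 0.14. Between days the CD24low difference of the lineages was tested as an interaction, in which 0.575% of probe sets were called higher and 0.809% lower, and Hey2 was the 1 member called, at −1.46 ± 0.23 SE (adjusted p = 0.00637). Notch1 (−0.75, adjusted p = 0.0307) and Jag1 (0.64, adjusted p = 0.0208) had an adjusted p under 0.05 below the fold threshold.

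**Figure D3:**
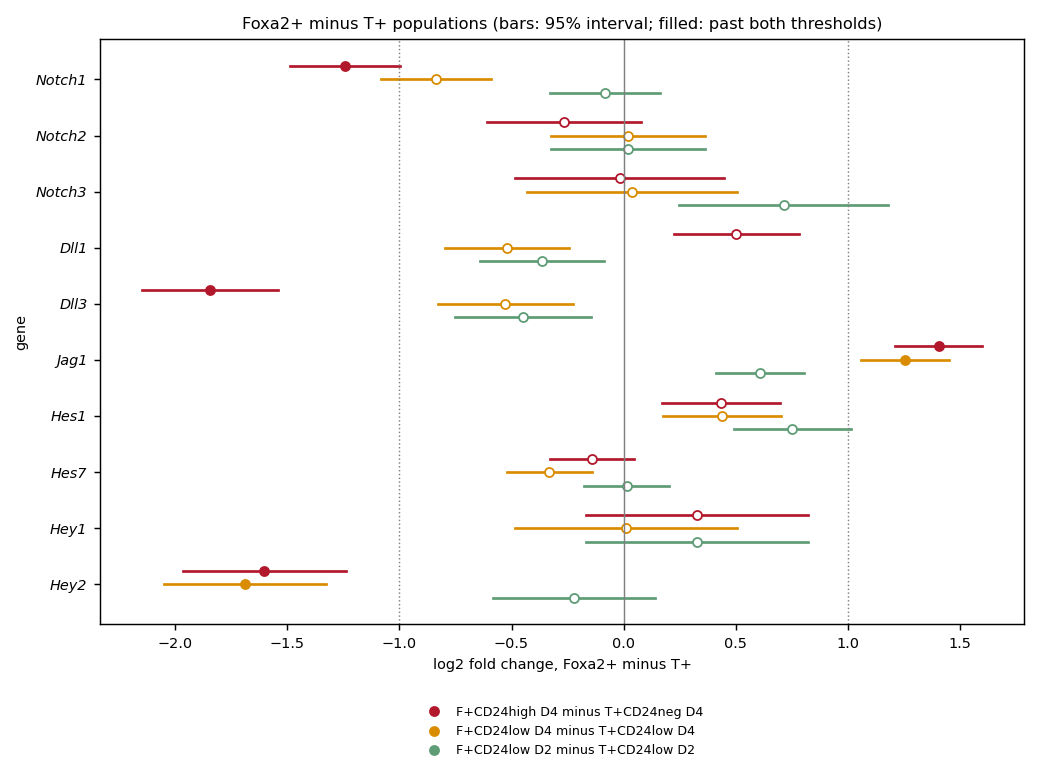
Log2 fold change of the 10 genes in Foxa2+ minus T+ cells for 3 matched comparisons, 2 arrays a group; points are estimates, filled where past both thresholds, bars 95% intervals, and dotted lines mark a log2 fold change of 1 in either direction. Jag1 lies right of 0 in all 3 comparisons, Dll3 and Notch1 lie at −1.84 and −1.24 in F+CD24high D4 minus T+CD24neg D4, and Hey2 lies at −1.60 and −1.69 in the day 4 comparisons and at −0.22 on day 2.

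Within each lineage, cells of the more differentiated gate were set against their CD24low progenitors of the same day. Dll1 was higher in F+CD24high than in F+CD24low cells on both days, and Jag1 and Hey1 were on day 2. In T+ cells no member passed.

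On day 4, Dll1 was 2.21-fold higher in F+CD24high than in F+CD24low cells (log2 1.14 ± 0.13 SE, adjusted p = 6.23e-05), the 1 member called where 2.11% of probe sets were higher and 2.69% lower. Jag1 (0.87, adjusted p = 3.43e-05), Hes1 (0.76, adjusted p = 0.000864) and Hey2 (0.65, adjusted p = 0.0182) were above 0 under the fold threshold. On day 2, 3 members were higher, beside 1.18% of probe sets higher and 1.62% lower. Jag1 had 11.08 and 11.16 in F+CD24high D2 cells, against 8.90 and 8.85 in F+CD24low D2 cells, a 4.74-fold difference (log2 2.24 ± 0.089 SE, adjusted p = 1.2e-07). Hey1 (log2 1.10, adjusted p = 0.00868) and Dll1 (log2 1.09, adjusted p = 0.000179) depended on 1 array of the progenitors, and were at 0.84 and 0.90 without F+CD24low D2 replicate 2. With only the 2 groups in the fit, the adjusted p of Hey1 was 0.07. Notch1 went the other way on day 2, at −0.64 (adjusted p = 0.0033).

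In T+CD24neg D4 compared with T+CD24low D4 cells, 1.1% of probe sets and no member were called in either direction with limma, and 6 members had an unadjusted p under 0.05. Dll3 (0.95, adjusted p = 0.00233), Hes1 (0.77, adjusted p = 0.00369) and Jag1 (0.72, adjusted p = 0.000796) had an adjusted p under 0.05 and lay under the fold threshold. Hes1 therefore differed by 0.76, 0.59 and 0.77 in the 3 gate comparisons, in each case under the fold threshold.

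The change of the Foxa2+ gate difference with the day was tested as an interaction, in which 0.35% of probe sets were higher and 0.381% lower. Jag1 was the member called, at −1.38 ± 0.13 SE (adjusted p = 0.000878), since its difference was 0.87 on day 4 and 2.24 on day 2. The difference of the 2 lineages in the day 4 gate comparison had 2.92% of probe sets higher and 3.12% lower, and 2 members. Dll1 was at 1.02 ± 0.18 SE (adjusted p = 0.00289), with a gate difference of 1.14 in Foxa2+ cells and 0.12 in T+ cells. Dll3 was at −1.32 ± 0.195 SE (adjusted p = 0.000967), with −0.37 in Foxa2+ cells and 0.95 in T+ cells. The Dll1 interaction lost its call without replicate 2 of F+CD24high D4 (0.94), F+CD24low D4 (0.93), T+CD24low D4 (0.94) or T+CD24neg D4 (0.997), while the one of Dll3 held without any single array.

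**Figure D4:**
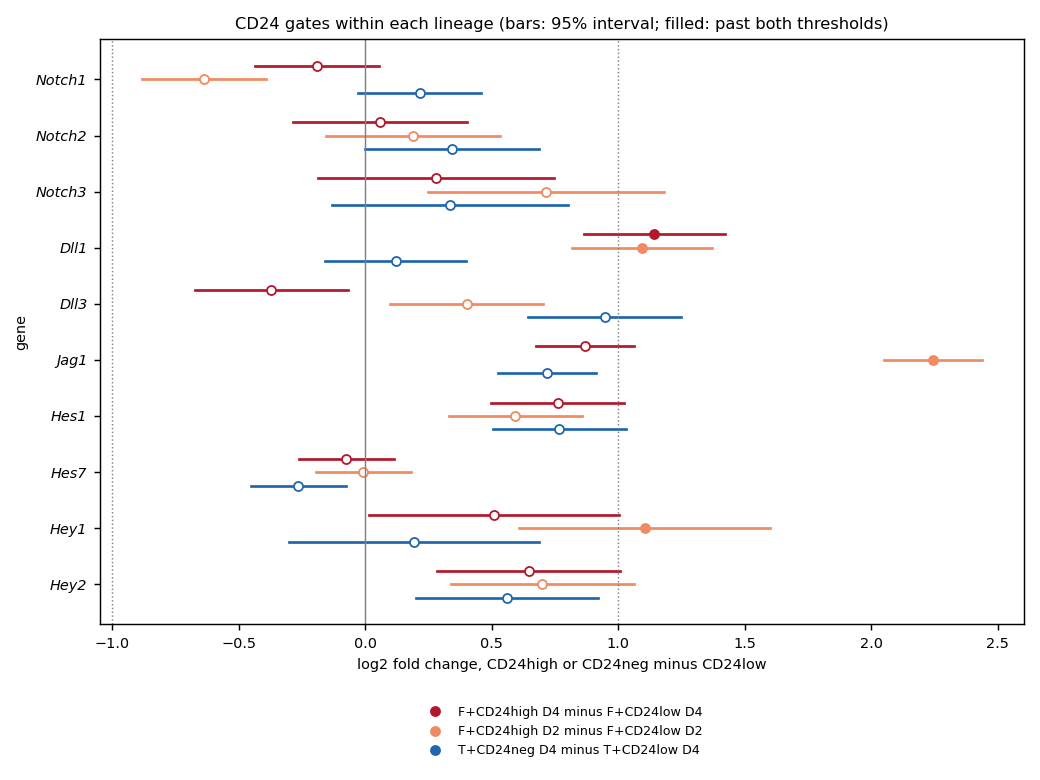
Log2 fold change of the 10 genes in CD24high minus CD24low Foxa2+ cells (days 4 and 2) and in CD24neg minus CD24low T+ cells (day 4), 2 arrays a group; points are estimates, filled where past both thresholds, bars 95% intervals, and dotted lines mark a log2 fold change of 1 in either direction. Jag1 on day 2 lies furthest right, at 2.24, Dll1 lies at 1.14 and 1.09 on days 4 and 2 in Foxa2+ cells and at 0.12 in T+ cells, and Dll3 lies at −0.37 in Foxa2+ cells and 0.95 in T+ cells on day 4.

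Between days within a gate, few members changed. In F+CD24high D4 compared with F+CD24high D2 cells Jag1 was lower by 2.05-fold (log2 −1.04, adjusted p = 7.17e-05), the 1 member called where 0.884% of probe sets were higher and 0.5% lower. It stayed within the fold threshold without F+CD24high D2 replicate 2 (−0.997) or F+CD24high D4 replicate 1 (−0.99), and its adjusted p was 0.0541 with only the 2 groups in the fit. In F+CD24low D4 compared with F+CD24low D2 cells no member and 0.294% of probe sets were called in either direction with limma, and 3 members had an unadjusted and 0 an adjusted p under 0.05.

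In T+CD24low D4 compared with T+CD24low D2 cells 2 members were higher, beside 1.05% of probe sets higher and 0.744% lower. Hey2 had 7.50 and 7.90 in T+CD24low D4 cells, against 5.68 and 5.91 in T+CD24low D2 cells, a 3.75-fold difference (log2 1.91 ± 0.17 SE, adjusted p = 4.43e-05) that held without any single array, though the day 2 level may be background. Hey1 was 2.22-fold higher (log2 1.15, adjusted p = 0.0105), and lost its call without T+CD24low D2 replicate 1 (1.20) or replicate 2 (1.10) or T+CD24low D4 replicate 2 (0.94). Notch3 (0.93, adjusted p = 0.0234), Notch1 (0.64, adjusted p = 0.00507) and Hes7 (0.42, adjusted p = 0.0127) were above 0 under the fold threshold, and Notch3 was at 1.09, past it, without T+CD24low D4 replicate 2.

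Over the 16 arrays, which share their groups, the closest pair of members was Notch3 and Hey1, at a Pearson correlation of 0.88, followed by Notch3 and Hes1 at 0.82. Notch1 and Jag1 ran most against each other, at −0.75. Among the other 18715 genes, the 3 most like Jag1 were Fkbp11 (0.96), Scel (0.95) and Ubqln1 (0.94). For Hey2 they were Dok4 (0.96), Myl4 (0.95) and Plac1 (0.95), and for Dll3 Adamts3 (0.96), Fbln1 (0.95) and Padi3 (0.95). Those most like Dll1 were Hs3st3b1 (0.96), Tmeff1 (0.94) and Flrt3 (0.94), and those most like Hes1 were Rnpepl1 (0.97), Ctnnbip1 (0.96) and Car4 (0.96). Notch1 was most like Slf2, Rnf213 and Mocs1 (0.94 to 0.95), Notch3 most like Csnk1e, Wdr91 and Map1lc3a (0.91 to 0.94), and Hey1 most like Amot, Zfand3 and Lgr5, each at 0.93. Notch2 and Hes7 spanned less than 1 over the groups and were not set against other genes.

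The rest of the pathway was read from 8 lists with 67 genes tested. No detection call exists for these genes either. Folds that involve levels about as dim as those of Hey2, among them folds of Bhlhe41, Cdx2, Rspo3 and Kat2b, may include background. The machinery that cuts and traffics Notch proteins passed in no comparison with limma, whether the cleavage enzymes (8 tested, such as Adam10 and the presenilin Psen2) or the 11 trafficking genes (such as Numb and Itch). At an unadjusted p under 0.05, without regard to fold, stood 54 of the 152 values of the cleavage enzymes and 72 of the 209 of the trafficking genes over all comparisons. Changes lay in the nuclear complex, in the ligand-like gene Dlk1, in the Hes relatives Bhlhe40 and Bhlhe41, in the glycosylation gene Poglut1, in other targets and in presomitic genes.

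In the nuclear complex, 9 of 10 genes were tested, and Maml3, a Mastermind-like coactivator, was higher than ES in all 7 sorted groups. Maml3 had 8.91 to 10.41 on the 14 sorted arrays, against 7.997 and 7.595 on the ES arrays, with log2 fold changes of 1.26 in T+CD24low D2 to 2.60 in F+CD24high D4 cells. Kat2b, an acetyltransferase, was lower in all 7, by log2 fold changes of −1.02 in F+CD24low D4 to −2.02 in T+CD24neg D4 cells. The Kat2b calls in F+CD24low D4 and D2 cells were lost without ES replicate 2 (−0.64 and −0.93), and the one of day 4 also without F+CD24low D4 replicate 2 (−0.96). Rbpj had 9.91 to 10.56 on the sorted arrays, against 11.06 and 11.33 on the ES arrays, and was called lower in T+CD24neg D4 (−1.16, adjusted p = 2.99e-05), T+CD24low D4 (−1.04) and T+CD24low D2 (−1.03). Without ES replicate 2 the last 2 were −0.91 and −0.89, and T+CD24low D4 was −0.95 without its replicate 1. Maml2 was lower in F+CD24high D4 cells, at −1.52 against ES (adjusted p = 0.000402) and −1.48 against F+CD24low D4 cells.

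Among other receptors and ligands, 1 of 5 changed. It was called higher than ES in T+CD24neg D4 and T+CD24low D4 cells, beside 2.23% and 2.26% of all probe sets. Dlk1, a delta-like membrane protein that lacks the domain by which ligands bind Notch, had 10.36 and 10.27 in T+CD24neg D4 cells and 10.18 and 10.46 in T+CD24low D4 cells, against 8.37 to 9.17 on the other 12 arrays, ES included. It was lower in F+CD24high D4 than in T+CD24neg D4 cells (−1.58, adjusted p = 4.74e-06) and in F+CD24low D4 than in T+CD24low D4 cells (−1.93, adjusted p = 2.58e-06), and its lineage difference changed with the day (−1.63, adjusted p = 0.000904). Notch4, Dll4, Jag2 and Dlk2 passed in no comparison with limma, with 18 of 76 values at an unadjusted p under 0.05.

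Of 8 further Hes and Hey relatives 2 changed, in opposite directions. In F+CD24high D4 cells against ES, 3.57% of all probe sets were higher and 5.19% lower. Bhlhe41 had 8.64 and 8.56 in F+CD24high D4 cells and 7.05 and 7.72 in F+CD24high D2 cells, against 5.56 to 6.33 on the other 12 arrays. Its differences were 2.54 in F+CD24high D4 (adjusted p = 1.45e-06) and 1.32 in F+CD24high D2 cells against ES, and the second was 0.99 without F+CD24high D2 replicate 2. In ES Bhlhe41 had 6.11 and 6.02, levels that may be background. Bhlhe40, a related repressor, was lower in F+CD24high D4 cells, at −2.02 against ES (adjusted p = 0.000638) and −2.43 against T+CD24neg D4 cells (adjusted p = 0.000236). Poglut1, the glucosyltransferase that modifies Notch receptors, was lower in F+CD24high D4 and D2 cells than in ES, at −1.38 and −1.34. It was the 1 of 5 glycosylation genes called, beside 5.19% and 4.4% of all probe sets lower on days 4 and 2.

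Of 7 genes listed as feedback or other targets, 5 (Id1, Sox9, Myc, Nrarp and Gata3) were higher in T+CD24neg D4 cells than in ES, where 2.23% of all probe sets were higher and 3.43% lower, and the list's median was 1.03 and that of all probe sets 0.05. Sox9, at 1.29, held without any single array, while Id1 and Myc lost their calls without ES replicate 1 (1.14 and 0.92) and Gata3 without ES replicate 2 (0.81) or T+CD24neg D4 replicate 2 (0.89). Nrarp, a Notch-induced inhibitor of the pathway, had 8.05 and 8.03 in T+CD24neg D4 and 8.36 and 7.91 in F+CD24high D2 cells, against 6.91 and 7.12 in ES. Its log2 fold changes were 1.03 and 1.12, the first lost without ES replicate 1 (0.92) and the second without F+CD24high D2 replicate 1 (0.90). In F+CD24high D4 cells Gata3 was higher than in ES (2.98, adjusted p = 5.7e-06), and Ccnd1, a cyclin of the cell cycle, and Myc were lower (−3.44 and −1.39). Against T+CD24neg D4 cells, Ccnd1 was at −3.33, Myc at −2.45 and Sox9 at −1.29 in F+CD24high D4 cells, all called. These genes answer to many signals besides Notch.

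**Figure D5:**
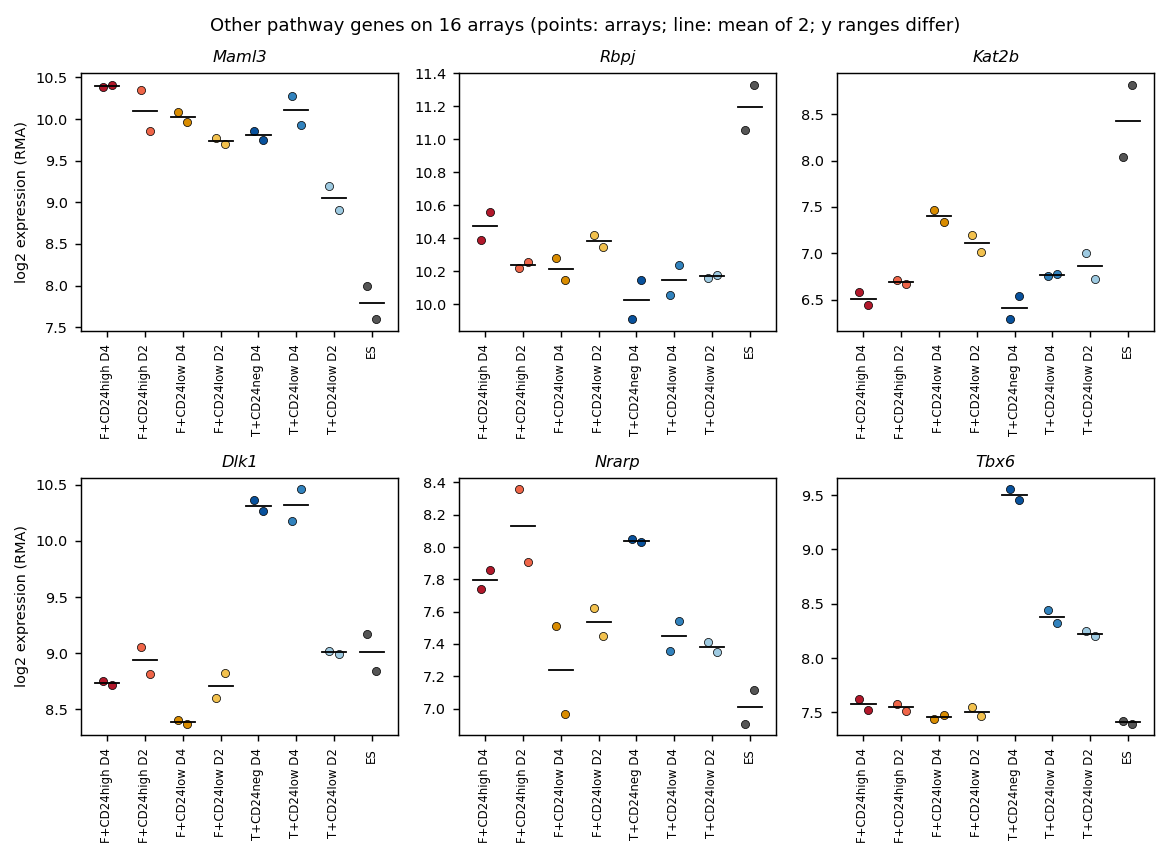
Log2 expression of 6 other pathway genes (panels) on every one of the 16 arrays, by group along the horizontal axis, with points for arrays and a line for the mean of 2; the vertical ranges differ between panels. Maml3 is lowest and Rbpj and Kat2b are highest on the 2 ES arrays, Dlk1 is highest on the 4 arrays of day 4 T+ cells, and Tbx6 is highest on the 2 T+CD24neg D4 arrays.

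Of 14 presomitic and segmentation genes, 8 were higher in T+CD24neg D4 cells than in ES and 1, Ripply1, was lower, beside 2.23% of all probe sets higher and 3.43% lower. The list median was 1.20, beside 0.05 for all probe sets. Ripply2, Uncx, Pcdh8, Wnt3a and Dusp6 were not called there. Rspo3 (4.39), Cdx2 (2.87), Fgf8 (2.78) and Tbx6 (2.10) led the 8 that were higher, of which Tbx6 is a transcription factor of presomitic mesoderm. In ES Cdx2 had 6.66 and 6.65 and Rspo3 7.34 and 6.58, levels that may be background. Mesp2, at 1.13, was 0.87 without T+CD24neg D4 replicate 1. Ripply1, at −1.01, lost its call without ES replicate 2 (−0.65) or T+CD24neg D4 replicate 2 (−0.97). In F+CD24high D4 compared with T+CD24neg D4 cells 6 of 14 were lower, beside 2.96% of all probe sets, with a list median of −0.67, led by Rspo3 (−4.43), Cdx2 (−2.69), Tbx6 (−1.93) and Axin2 (−1.56). Fgf8 was higher than ES in all 7 sorted groups (2.24 to 3.40). T+CD24low D4 cells also had more Rspo3 (4.19), Cdx2 (4.16) and Fgf8 (3.13) than ES, all called. Tbx6 had 8.44 and 8.32 in those cells, against 7.42 and 7.40 in ES. In F+CD24high D2 cells 3 of 14 were higher than in ES, beside 2.25% of all probe sets higher and 4.4% lower. These were Fgf8 with Axin2 (1.45, adjusted p = 2.04e-05) and Nkd1 (1.33, adjusted p = 6.57e-07), both inhibitors of Wnt signalling, and each held without any single array. In F+CD24high D4 compared with F+CD24low D4 cells Rspo3 (−1.37) and Dusp6 (−1.07) were lower, the second at −0.91, under the fold threshold, without F+CD24low D4 replicate 1. Tbx6 had 9.55 and 9.45 in T+CD24neg D4 cells, against 8.44 and 8.32 in T+CD24low D4 cells, a difference of 1.12 (adjusted p = 2.72e-05). Cdx2 was called the other way, at −1.30 in T+CD24neg D4 compared with T+CD24low D4 cells.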

How the data were processed

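RNA of 8 groups of mouse embryonic stem cells and their sorted derivatives was measured with 2 Affymetrix Mouse Gene ST 1.0 arrays per group. The authors normalized all 16 arrays together by RMA (oligo 1.48.0, per the submitters' processing notes) and deposited 1 log2 value for each of 35556 probe sets, which already includes background correction, quantile normalization and summarization. A change of total RNA per cell is therefore not visible, and differences of dim genes are compressed. The number of arrays limits the precision.

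The 32000 probe sets of highest mean were kept, following the study's methods, and fitted with limma 3.58.1 in R 4.3.3 with 1 mean per group. A call needed a log2 fold change of more than 1 in size together with an adjusted p under 0.05 (Benjamini–Hochberg, 32000 tests). There were 16 comparisons of groups and 3 interactions. The platform annotation gave 1 symbol to 20427 probe sets, several to 1400 and none to 10173. Each gene was read from its single-symbol probe set of highest mean. Columns of all 16 arrays matched their labels, and no 2 arrays held identical values.

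The 10 genes, the pathway lists and the marker lists were chosen with earlier results of these data known. The text names all 10 genes, of a pathway list up to 4 called genes of largest change in a comparison described, the highest marker of a list, and the 3 genes of highest Pearson correlation to a member whose group means span over 1. Pathway genes named beyond this rule, among them those not called, Mesp2 and the full set of targets, were chosen after their values were seen. Alternatives were the 16000 probe sets of highest mean, all probe sets, trend and robust estimation, array weights, the replicate block, the adjusted p alone, treat, only the groups compared, the mean of a gene's probe sets, and leaving out each array. For the pathway genes the last was added after seeing the data. The fit was tested on simulated data. The T gene itself was not analysed here. Promoter windows are from RefSeq (GRCm38.p6).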

Additional observations from a re-analysis of the deposited data

Results flagged for a closer look

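Of the 10 genes, 4 had a difference between 2 groups that itself differed between days or lineages, by an interaction contrast of the limma fit. The difference of F+CD24low minus T+CD24low cells in Hey2 was −1.69 on day 4 and −0.22 on day 2, and the change was −1.46 (adjusted p = 0.00637). The difference of F+CD24high minus F+CD24low cells in Jag1 was 0.87 on day 4 and 2.24 on day 2, and the change was −1.38 (adjusted p = 0.000878). The day 4 gate difference in Dll1 was 1.14 in Foxa2+ cells and 0.12 in T+ cells, and the 2 differed by 1.02 (adjusted p = 0.00289). In Dll3 it was −0.37 in Foxa2+ cells and 0.95 in T+ cells, and they differed by −1.32 (adjusted p = 0.000967).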

How the results depend on the processing

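No result changed direction past a threshold under any setting. With the adjusted p alone, the members called were 8 in F+CD24high D2, 4 in F+CD24low D4, 4 in F+CD24low D2, 9 in T+CD24low D4 and 4 in T+CD24low D2 cells against ES. They were 7 in F+CD24low D4 and 2 in F+CD24low D2 cells against T+CD24low cells of the same day, 4 (day 4) and 6 (day 2) in F+CD24high against F+CD24low cells, and 3 in T+CD24neg D4 against T+CD24low D4 cells. Between days there were 2 in F+CD24high and 5 in T+CD24low cells, and 3 in the interaction of lineage and day, and the pathway lists had 275 calls in place of 104. With treat, members called against ES were 1 in F+CD24high D4, 2 in F+CD24high D2, 3 in T+CD24neg D4 and 0 in F+CD24low D4, F+CD24low D2 and T+CD24low D4. Treat left 2 in F+CD24high D4 against T+CD24neg D4, 0 in F+CD24low D4 against T+CD24low D4, 0 (day 4) and 1 (day 2) in F+CD24high against F+CD24low, 0 between days in F+CD24high and 1 in T+CD24low, 0 in each of the 3 interactions, and 44 calls of pathway genes. With 16000 probe sets, which leave out Hey2 (rank 23240), 1 member was called in F+CD24low D4 against T+CD24low D4, 1 in T+CD24low D4 against T+CD24low D2 and 0 in the interaction of lineage and day. With only the groups compared, 1 was called in F+CD24low D4 against ES and 0 between days in F+CD24high.

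With 1 array left out, the members called against ES ranged from 4 to 5 in F+CD24high D4, 4 to 6 in F+CD24high D2, 1 to 3 in F+CD24low D4, 5 to 6 in T+CD24neg D4, 1 to 5 in T+CD24low D4 and 0 to 1 in T+CD24low D2. They ranged from 2 to 3 in F+CD24low D4 against T+CD24low D4, 1 to 3 in F+CD24high D2 against F+CD24low D2, 0 to 1 between days in F+CD24high, 1 to 2 between days in T+CD24low and 1 to 2 in the day 4 gate interaction. Of single members, 20 values lost and 10 gained a call with 1 array left out, and 850 stayed on their side. A group of 2 then rests on 1 array, which is assumed to vary like the other groups.

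Replicate numbers are shared by the groups, and whether same-numbered arrays came from the same culture is not known. Deviations of same-numbered arrays correlated at −0.20 to 0.25 over 28 pairs of groups, 8 of them above 0.1. These values do not settle the pairing, since gates of the same day and medium were not examined apart. With the replicate block the members called stayed at 5 in F+CD24high D4 and 6 in T+CD24neg D4 against ES, no member's call changed, and the pathway lists had 105 calls. All probe sets, trend and robust estimation and array weights changed no member's call. Each gene's single probe set made the mean over probe sets the same value.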
